A study of Mus musculus with 6 samples.

Results

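The mesothelial marker genes, a group of 10, were followed mouse by mouse in inguinal white adipose tissue (iWAT), a subcutaneous fat depot. They were found by their symbols, *Upk3b*, *Upk1b*, *Wt1*, *Msln*, *Krt19*, *Lrrn4*, *Muc16*, *Gpm6a*, *Bnc1* and *Aldh1a2*, and all 10 were among the 55573 genes listed. RNA-seq libraries of 3 mutant and 3 Wt mice were compared, with 1 library per mouse. Mutant mice carried a global knock-in of K283Q/K288R in *Thra*, the gene of thyroid hormone receptor alpha, and were homozygous by the study's methods. Wt mice were bred in house, on the same background. All 6 were male C57BL/6NTac mice of 3 months on regular chow with no treatment, and the libraries hold the RNA of whole fat, with every cell type it contains. The genes were chosen by their mutant and Wt levels in these same libraries as well as by their known role, so their genotype values are given as a description, with no test.

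Mesothelium is the thin sheet of flattened cells that covers the serosal surfaces of the pleura, the pericardium, the peritoneum and the organs within these cavities. Its cells carry keratins and a coat of mucin-like glycoproteins, as epithelia do, yet arise from mesoderm and depend in development on the transcription factor WT1. Fat depots inside the abdomen have a mesothelial surface, whereas subcutaneous depots such as iWAT have none.

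Sequencing gave 19607423 to 24228381 reads on genes per mouse, and 3 reads on a gene correspond to a normalized level of 0.126 to 0.157 CPM (reads scaled to a library of common size). Fat genes marked all libraries, with *Adipoq* (adiponectin) at 1557 to 2219 in Wt and 1332 to 2141 in mutant mice. The knock-in changes codons and keeps the *Thra* transcript, which stood at 117 to 147 in Wt and 137 to 170 in mutant mice, so its level cannot check the genotype labels. Lymphocyte genes set 1 library apart. The summed level of *Cd79a*, *Ms4a1* and *Cd3e* was 1.15 in mutant mouse 1 and 145 to 333 in the other 5 mice, and the values of the marker genes without mutant mouse 1 are given below. Of the 16868 genes tested, 1192 share exonic bases with an antisense partner whose level is at least 10-fold higher. Of these 1192, 576 were called higher in mutant mice. Over all genes tested 928 (5.5%) were called higher, so most of those calls fall in this class. None of the marker genes is among the 1192 (0 of 10), and none shares exon bases with a gene on its own strand.

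Upstream windows are shown so that a reader can compare the bases before the starts of the genes. RefSeq promoter sequences (GRCm38.p6) were held for 6 of the 10 genes. The 250 bases before the start are printed for 5 of them, 5′ to 3′ on the strand of the gene. The printed windows are those with a match to a searched motif, whatever the genotype levels of the gene. Capitals mark matches, on either strand, to GGAATG (the core bound by TEAD factors), GCGTGGG (a core bound by the zinc fingers of WT1 and EGR proteins) or GGGCGG (the GC box). AGATAA, the GATA core, was also searched and was in none of the windows. No matches overlapped. The windows are chr5:136038246-136038495 (*Upk3b*, + strand), chr2:132880863-132881112 (*Lrrn4*, - strand), chr8:54779184-54779433 (*Gpm6a*, + strand, the first of its 2 RefSeq starts, which lies upstream of the gene span given below), chr7:81992300-81992549 (*Bnc1*, - strand) and chr9:71215539-71215788 (*Aldh1a2*, + strand).
Upk3b: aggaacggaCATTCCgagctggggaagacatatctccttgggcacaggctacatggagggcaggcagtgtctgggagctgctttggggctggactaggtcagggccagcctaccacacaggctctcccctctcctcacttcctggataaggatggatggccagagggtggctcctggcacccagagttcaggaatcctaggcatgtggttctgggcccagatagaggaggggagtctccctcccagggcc
Lrrn4: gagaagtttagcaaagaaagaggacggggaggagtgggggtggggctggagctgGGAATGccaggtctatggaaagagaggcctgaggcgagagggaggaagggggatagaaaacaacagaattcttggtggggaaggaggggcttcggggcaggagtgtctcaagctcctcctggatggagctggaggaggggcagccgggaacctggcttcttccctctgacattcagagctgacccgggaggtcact
Gpm6a: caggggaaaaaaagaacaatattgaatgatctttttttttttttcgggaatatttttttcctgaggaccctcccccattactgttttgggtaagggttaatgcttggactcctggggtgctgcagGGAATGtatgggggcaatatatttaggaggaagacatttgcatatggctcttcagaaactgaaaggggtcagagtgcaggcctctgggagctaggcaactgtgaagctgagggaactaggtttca
Bnc1: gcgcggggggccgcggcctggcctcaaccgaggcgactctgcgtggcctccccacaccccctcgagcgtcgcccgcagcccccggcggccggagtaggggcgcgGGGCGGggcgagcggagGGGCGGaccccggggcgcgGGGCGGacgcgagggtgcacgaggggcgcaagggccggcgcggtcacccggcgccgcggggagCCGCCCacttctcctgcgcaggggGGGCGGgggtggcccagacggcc
Aldh1a2: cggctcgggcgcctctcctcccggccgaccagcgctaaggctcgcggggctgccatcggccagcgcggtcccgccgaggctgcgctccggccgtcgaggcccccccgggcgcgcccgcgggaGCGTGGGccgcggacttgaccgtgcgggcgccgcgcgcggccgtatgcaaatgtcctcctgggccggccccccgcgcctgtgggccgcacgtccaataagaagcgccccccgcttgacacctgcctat
GGAATG was found in the windows of *Upk3b*, *Lrrn4* and *Gpm6a*, starting 241, 196 and 125 bases before the start, and 12.6% of all 32851 promoter windows of this length hold it. *Aldh1a2* had the GCGTGGG match, 128 bases before its start, against 4.30% of all windows. *Bnc1* had 5 matches to GGGCGG in a window of 83.6% G and C, and 32.7% of all windows have at least 1. *Muc16* and the other start of *Gpm6a* had none of the 4 motifs. That other window (chr8:54954478-54954727) is the one next to the gene span given below. The first transcribed bases after the window were found in an annotated transcript of the gene for *Upk3b*, *Lrrn4* and *Aldh1a2*. They were not found for *Bnc1*, *Muc16* or either start of *Gpm6a*. *Upk1b*, *Wt1*, *Msln* and *Krt19* are named only.

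Of the 10 genes, 8 were higher in the lowest mutant mouse than in the highest Wt mouse, an ordering found for 14.9% of all genes tested, and nothing is read from this count because the same contrast chose the genes. *Krt19* and *Aldh1a2* overlapped between the genotypes. The study already names *Wt1*, *Msln* and *Bnc1* from the same libraries. The median log2 difference of the 10 genes was 2.04, and that of all genes tested was -0.05, both on the log2(value + 0.5) scale, which understates the change of low genes. In bulk tissue, more cells of a type and more RNA per cell cannot be told apart.

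**Figure D1:**
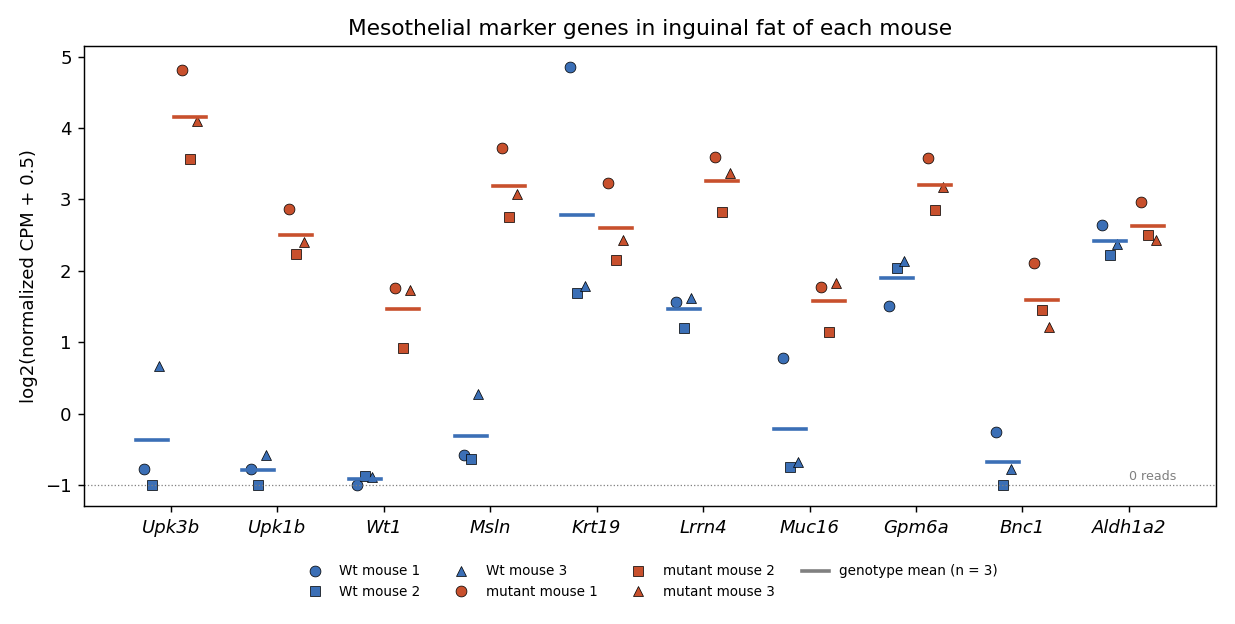
Level of each marker gene in each mouse, as log2(normalized CPM + 0.5), with bars at the genotype means (n = 3) and a dotted line at 0 reads. The mutant mice lie above all Wt mice for 8 of the 10 genes, and *Krt19* and *Aldh1a2* overlap.

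*Upk3b* and *Upk1b* encode uroplakins, membrane proteins first known from the plaques of the bladder lining. *Upk3b* (ENSMUSG00000042985, chromosome 5 of GRCm38, 136038496 to 136046487), a single-pass uroplakin, had 2, 0 and 26 reads in Wt mice 1 to 3, in that order, whereas mutant mice 1 to 3 had 529, 254 and 354. Its normalized CPM were 0.0838, 0 and 1.09 in Wt mice, whereas the mutant mice had 27.7, 11.4 and 16.6. The lowest mutant mouse was thus 10.4 times the highest Wt mouse, and most of the Wt reads came from mouse 3. The ratio of pooled reads, each genotype scaled by its library sizes, was 44.1 (95% exact interval 30.4 to 66.7), and the log2 difference was 4.53. This interval and those below cover counting error only, because they treat the pooled reads as independent and leave out the differences between mice. Any PCR copies, which are not independent molecules, were also counted as separate reads. The intervals therefore do not measure how well 3 mice fix a genotype ratio.

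*Upk1b* (ENSMUSG00000049436, chromosome 16, 38773184 to 38800328), a tetraspanin that pairs with other uroplakins, had 2, 0 and 4 Wt reads, whereas the mutant mice had 129, 94 and 103. In normalized CPM these were 0.0838, 0 and 0.168 against 6.76, 4.22 and 4.82. With 6 reads in all, the Wt mice were close to the floor, and the mutant mice were more even than for *Upk3b*, with a highest level 1.60 times the lowest. The pooled ratio was 59.1 (95% exact interval 26.8 to 162) and the log2 difference 3.29.

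*Wt1* and *Bnc1* encode transcription factors. *Wt1* (ENSMUSG00000016458, chromosome 2, 105126529 to 105173616), a zinc finger regulator of mesothelium, kidney and gonad, had normalized CPM of 0, 0.0486 and 0.0421 in Wt mice, whereas the mutant mice had 2.88, 1.39 and 2.81. The Wt values rest on 0, 1 and 1 reads, so that the transcript was at the limit of detection there, and the pooled ratio of 79.4 has a wide interval (95% exact, 21.6 to 661). *Bnc1* (ENSMUSG00000025105, chromosome 7, 81966672 to 81992292), basonuclin 1, a zinc finger protein of stratified epithelia and germ cells, was at 0.335, 0 and 0.0841 in Wt mice. It reached 3.83, 2.24 and 1.82 in mutant mice, from 73, 50 and 39 reads against 8, 0 and 2. Mutant mouse 1 was again the highest, and the lowest mutant mouse was 5.44 times the highest Wt mouse. The log2 difference was 2.38 for *Wt1* and 2.27 for *Bnc1*. *Bnc1* shares 98 exonic bases with the gene listed as 4833418N17Rik on the other strand, whose mean level was 0.00748.

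*Msln* and *Muc16* encode a ligand pair of the mesothelial surface. *Msln* (ENSMUSG00000063011, chromosome 17, 25748613 to 25754378), mesothelin, a GPI-anchored glycoprotein that binds MUC16, had normalized CPM of 0.168, 0.146 and 0.715 in Wt mice, whereas the mutant mice had 12.6, 6.28 and 7.91. It behaved like *Upk3b* in the Wt group, with 17 of its 24 reads in mouse 3. The pooled ratio was 24.9 (95% exact interval 16.6 to 39.2) and the log2 difference 3.49. *Muc16* (ENSMUSG00000109564, chromosome 9, 18495455 to 18674530), the large membrane mucin known as CA125, was at 1.21, 0.0973 and 0.126 in Wt mice, whereas the mutant mice had 2.93, 1.71 and 3.04. Here Wt mouse 1 stood apart, with 29 reads against 2 and 3, and the lowest mutant mouse was only 1.40 times its level. The log2 difference of *Muc16* was 1.80 with all mice and 2.29 without Wt mouse 1.

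*Lrrn4* and *Gpm6a* were the genes of the group with a clear level in every Wt mouse and no overlap. *Lrrn4* (ENSMUSG00000043110, chromosome 2, 132868305 to 132880891), a leucine-rich repeat membrane protein, had normalized CPM of 2.47, 1.80 and 2.57 in Wt mice, whereas the mutant mice had 11.6, 6.55 and 9.83. Its means were 2.28 ± 0.418 (SD, n = 3) and 9.32 ± 2.55 (SD, n = 3), and the log2 difference was 1.80. *Gpm6a* (ENSMUSG00000031517, chromosome 8, 54954843 to 55060871), a four-pass membrane glycoprotein also abundant in neurons, was at 2.35, 3.60 and 3.91 in Wt mice, whereas the mutant mice had 11.4, 6.73 and 8.56. The gap between the genotypes was narrower than for *Lrrn4*, with the lowest mutant mouse 1.72 times the highest Wt mouse and a log2 difference of 1.31.

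*Krt19* and *Aldh1a2* were the genes whose genotypes overlapped. *Krt19* (ENSMUSG00000020911, chromosome 11, 100140810 to 100148665), a type I keratin of simple epithelia and mesothelium, had normalized CPM of 28.5, 2.72 and 2.94 in Wt mice, whereas the mutant mice had 8.86, 3.95 and 4.91. Wt mouse 1 alone held 680 of the 806 Wt reads and exceeded every mutant mouse. The log2 difference was -0.17 with all mice and 0.87 without Wt mouse 1, when the mutant mean was 2.08 times the Wt mean and the genotypes no longer overlapped. *Aldh1a2* (ENSMUSG00000013584, chromosome 9, 71215789 to 71296243), an enzyme that makes retinoic acid from retinal, was at 5.74, 4.18 and 4.67 in Wt mice, whereas the mutant mice had 7.34, 5.16 and 4.91. Its means of 4.86 ± 0.797 (SD, n = 3) and 5.80 ± 1.33 (SD, n = 3) differed by less than the SD of the mutant mice, and the log2 difference was 0.22. Without Wt mouse 1, none of the 10 genes overlapped. Without any other mouse, mutant mouse 1 included, the count without overlap was 8. Leaving out a mouse can keep or raise this count but cannot lower it, so nothing is read from it.

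Of the 12 epithelial genes listed, 9 were highest in Wt mouse 1, the mouse with the most *Krt19*, and 3 were highest in mutant mouse 2. Wt mouse 1 had *Krt18* at 25.5 normalized CPM, against 1.12 and 2.90 in Wt mice 2 and 3 and at most 2.52 in mutant mice. *Epcam*, a surface marker of epithelia, was at 14.5 there, against 2.09 and 2.36 in the other Wt mice and 0.786 to 1.22 in mutant mice. The keratins of basal epithelial cells peaked in mutant mouse 2, with *Krt5* at 13.8 there against 7.08 in Wt mouse 1, *Krt14* at 4.62 against 3.98 and *Krt15* at 11.04 against 0. *Trp63*, a factor of basal cells, was at 10.1 in Wt mouse 1 and 6.61 to 8.33 in the other 5 mice. The whole list (*Epcam*, *Cdh1*, *Krt5*, *Krt14*, *Krt15*, *Krt17*, *Krt8*, *Krt18*, *Elf5*, *Trp63*, *Cldn4* and *Cldn7*) summed to 100.2 in Wt mouse 1, to 14.4 and 18.8 in Wt mice 2 and 3, and to 12.3 to 42.5 in mutant mice. None of the 8 epithelial genes tested was called between the genotypes by limma or edgeR, with 1 at an unadjusted p under 0.05 and 2 called by DESeq2. The part of epithelial cells in the *Krt19* and *Muc16* levels of Wt mouse 1 was not tested.

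**Figure D2:**
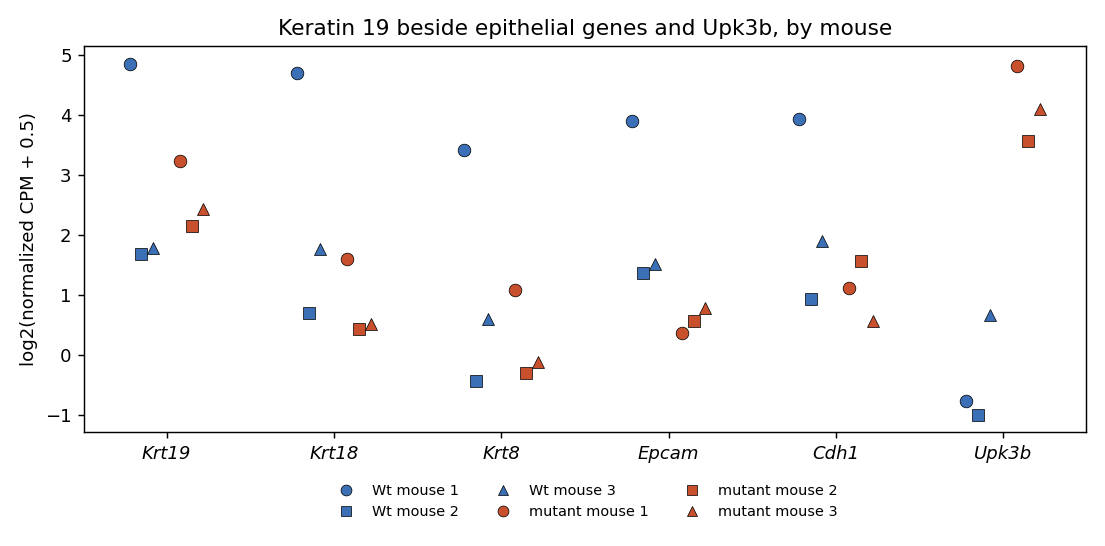
*Krt19*, 4 epithelial genes and *Upk3b* in each mouse, as log2(normalized CPM + 0.5). Wt mouse 1 is the highest of the 6 mice for *Krt19*, *Krt18*, *Krt8*, *Epcam* and *Cdh1*, whereas for *Upk3b* it lies below all mutant mice; *Krt5*, *Krt14* and *Krt15*, not drawn, were highest in mutant mouse 2.

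The order of the genes by level was different in the genotypes. Per kilobase of exon (normalized CPM per kb), *Krt19* led in Wt mice at 6.14 ± 7.98 (SD, n = 3), followed by *Aldh1a2* at 2.15 ± 0.352 (SD, n = 3), *Gpm6a* at 1.02 ± 0.258 (SD, n = 3) and *Lrrn4* at 0.613 ± 0.113 (SD, n = 3). The other 6 genes were at 0.112 or less in Wt mice, with *Wt1* lowest at 0.00488. *Aldh1a2*, *Gpm6a* and *Lrrn4* each stood above the next gene by more than the larger of their SDs, while *Krt19* and *Aldh1a2*, and neighbours among the lowest 6, did not. In mutant mice *Upk3b* led at 5.26 ± 2.36 (SD, n = 3) per kb. *Krt19*, *Msln*, *Gpm6a*, *Aldh1a2*, *Upk1b* and *Lrrn4* followed between 3.18 and 2.51, and neighbours among these 7 genes differed by less than the larger of their SDs. *Bnc1* at 0.566 ± 0.227 (SD, n = 3) and *Wt1* at 0.381 ± 0.136 (SD, n = 3) were lower and differed by less than the SD of *Bnc1*, and *Muc16* was the lowest at 0.0972 ± 0.0282 (SD, n = 3). *Muc16* has by far the longest annotated exons of the group (26350 bases), so its few reads are spread over a long transcript.

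The mutant mice kept nearly the same order from gene to gene. Mutant mouse 1 had the highest level of the 3 for 9 of the 10 genes, the exception being *Muc16*, and mutant mouse 2 the lowest for 8, the exceptions being *Bnc1* and *Aldh1a2*. Over all genes tested, mutant mouse 1 was highest for 43.3% and mutant mouse 2 lowest for 24.6%. Among the 9 other serosal genes called higher, given below, mutant mouse 1 was highest for only 4 and mutant mouse 2 lowest for 6. The ratio of mutant mouse 1 to mutant mouse 2 ran from 1.42 for *Aldh1a2* to 2.43 for *Upk3b*, with a median of 1.74, beside 1.01 over all genes tested. Summed over the 10 genes, the level was 95.9, 49.6 and 65.2 in mutant mice 1 to 3, whereas Wt mice 1 to 3 had 40.9, 12.6 and 16.3. *Krt19* made up 69.6% of the sum in Wt mouse 1, and without *Krt19* and *Aldh1a2* the Wt sums were 6.70, 5.69 and 8.71 against 79.8, 40.5 and 55.4. In Wt mice, mouse 3 was highest for 5 genes, mouse 1 for 4 and mouse 2 for *Wt1*, and Wt mouse 2 was lowest for 8. Mutant mouse 1, the highest of the group, is also the library with almost no lymphocyte reads, and the part of this in its levels was not tested. Without it the median log2 difference of the 10 genes was 1.86.

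**Figure D3:**
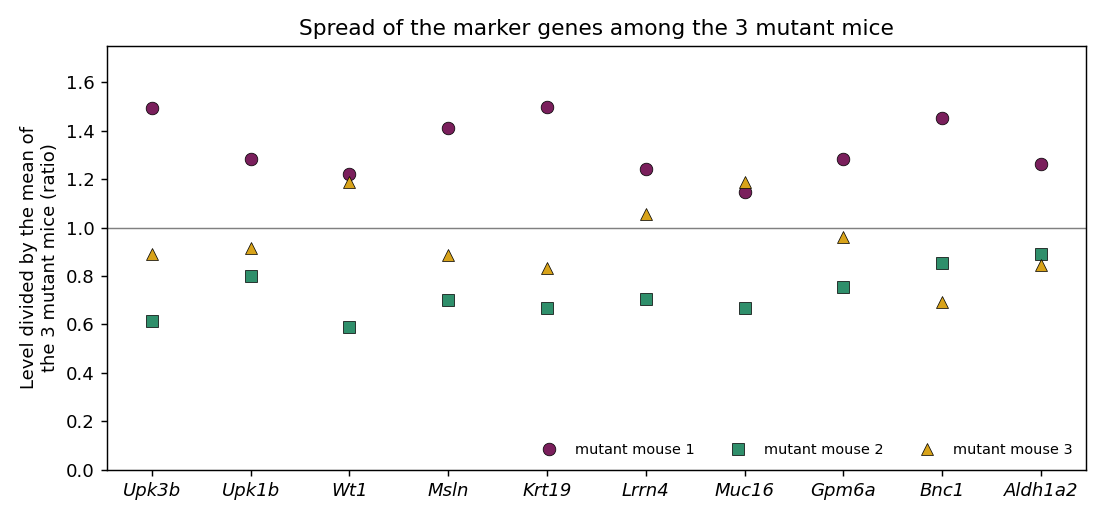
Level of each marker gene in the 3 mutant mice, divided by their mean (ratio, axis from 0). Mutant mouse 1 is highest for 9 of the 10 genes and mutant mouse 2 lowest for 8.

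Further genes of the serosal lining were compared by limma on log2(value + 0.5), adjusted over all 16868 genes tested by the Benjamini-Hochberg method. Of 26 such genes listed, 24 were tested and 9 passed an FDR of 0.05, all of them higher in mutant mice, where 5.5% of all genes tested were called higher and 8.11% in either direction. The median log2 difference of those tested was 0.48. The list was drawn up with results of these data known, and the study names *Calb2*, *Isl1* and *Wnt2b* from the same libraries, so it is not independent evidence of its direction. *Myrf*, a membrane-bound transcription factor of mesothelial cells and oligodendrocytes, had normalized CPM of 0.619 ± 0.383 (SD, n = 3) in Wt mice and rose to 6.26 ± 2.28 (SD, n = 3), by 2.61 on the log2 scale (standard error 0.35, adjusted p = 0.00794, limma). *Slpi*, a secreted protease inhibitor, rose from 2.59 ± 0.775 (SD, n = 3) to 12.4 ± 4.31 (SD, n = 3), by 2.04 (standard error 0.30, adjusted p = 0.0115, limma). Calretinin (*Calb2*), a calcium-binding protein used to stain mesothelium, had 0, 0 and 8 Wt reads, whereas the mutant mice had 31, 39 and 44, with a difference of 1.96 (adjusted p = 0.00643, limma).

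The other genes that passed included secreted and membrane proteins. *Nkain4*, a protein that interacts with the sodium pump, rose by 1.53 on the log2 scale, *Wnt2b*, a Wnt ligand, by 1.53, and *Rspo1*, an enhancer of Wnt signaling, by 1.49. *Isl1*, a LIM homeodomain factor, rose by 1.72, and *Prg4*, the boundary lubricant of joints and serosal surfaces, by 1.10. *Prg4* shares 204 exonic bases with *Tpr* on the other strand, whose mean level was 32.5 times its own. *Prg4* is thus 1 of the 1192 genes with an antisense partner at least 10-fold higher, of which 576 were called higher. The part of this overlap in its call was not tested. *Sulf1* passed narrowly (log2 difference 0.53, adjusted p = 0.0492, limma) and did not pass when any mouse was left out. *Calb2*, *Nkain4*, *Slpi*, *Myrf* and *Wnt2b* passed whichever mouse was left out, and these 5 were the only ones to pass without mutant mouse 2. *Prg4* was lost only without mutant mouse 2. Of the 6 fits with a mouse left out, *Rspo1* passed in 2 and *Isl1* in 1. With all mice their adjusted p (limma) was 0.0213 and 0.0318. With edgeR's quasi-likelihood test on all mice, *Calb2* did not pass (adjusted p = 0.052). Among the genes that did not pass, the abundant *C3* (complement component 3) and *Igfbp5* had log2 differences of 0.14 and 0.24. *Krt18* and *Krt8* had differences of -1.54 and -0.97, with standard errors of 0.99 and 0.97, and Wt mouse 1 was their highest mouse. *Tcf21*, a factor of visceral mesoderm, had at most 1 read in any mouse, and *Gata4* had at most 18.

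The closest relatives of the marker genes were compared in the same way. Of 22 listed, 17 were tested, 4 passed as higher in mutant mice and none as lower, beside 5.5% and 2.61% of all genes tested. The median log2 difference of those tested was 0.15. *Lrrn1*, a neuronal relative of *Lrrn4*, rose most, with Wt levels of 1.59, 1.99 and 2.31, whereas the mutant mice had 15.04, 14.0 and 17.6 (log2 difference 2.71, standard error 0.17, adjusted p = 0.00122, limma). *Egr1*, an immediate early factor whose zinc fingers resemble those of WT1, rose by 1.07 (adjusted p = 0.00974, limma), and the study names it from the same libraries. *Muc4*, another membrane mucin, rose by 1.15, from 0, 2 and 4 reads to 12, 21 and 18 (adjusted p = 0.0155, limma). *Aldh1a1*, which makes retinoic acid as *Aldh1a2* does, rose by 0.97 (adjusted p = 0.0344, limma). Without Wt mouse 2 or without mutant mouse 2, only *Lrrn1* and *Egr1* passed. *Aldh1a1* was also lost without Wt mouse 3 and without mutant mouse 1, and *Muc4* was also lost without mutant mouse 3.

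The other uroplakin genes had few reads in both genotypes. *Upk1a* had 5 to 13 reads per mouse in both genotypes, *Upk2* at most 3, *Upk3bl* at most 2, and *Upk3a* had 9 reads in Wt mouse 1 and 0 in the other 5 mice. These 4 genes had too few reads to be tested. *Bnc2*, the paralogue of *Bnc1*, had a log2 difference of -0.17 (standard error 0.12, adjusted p = 0.439, limma), and *Gpm6b*, the paralogue of *Gpm6a*, one of -0.26 (standard error 0.23, adjusted p = 0.5, limma). The mucin gene *Muc1* had a difference of -0.71 (standard error 0.27, adjusted p = 0.171, limma). The mesothelin-like gene *Mslnl* had at most 3 reads in any mouse.

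**Figure D4:**
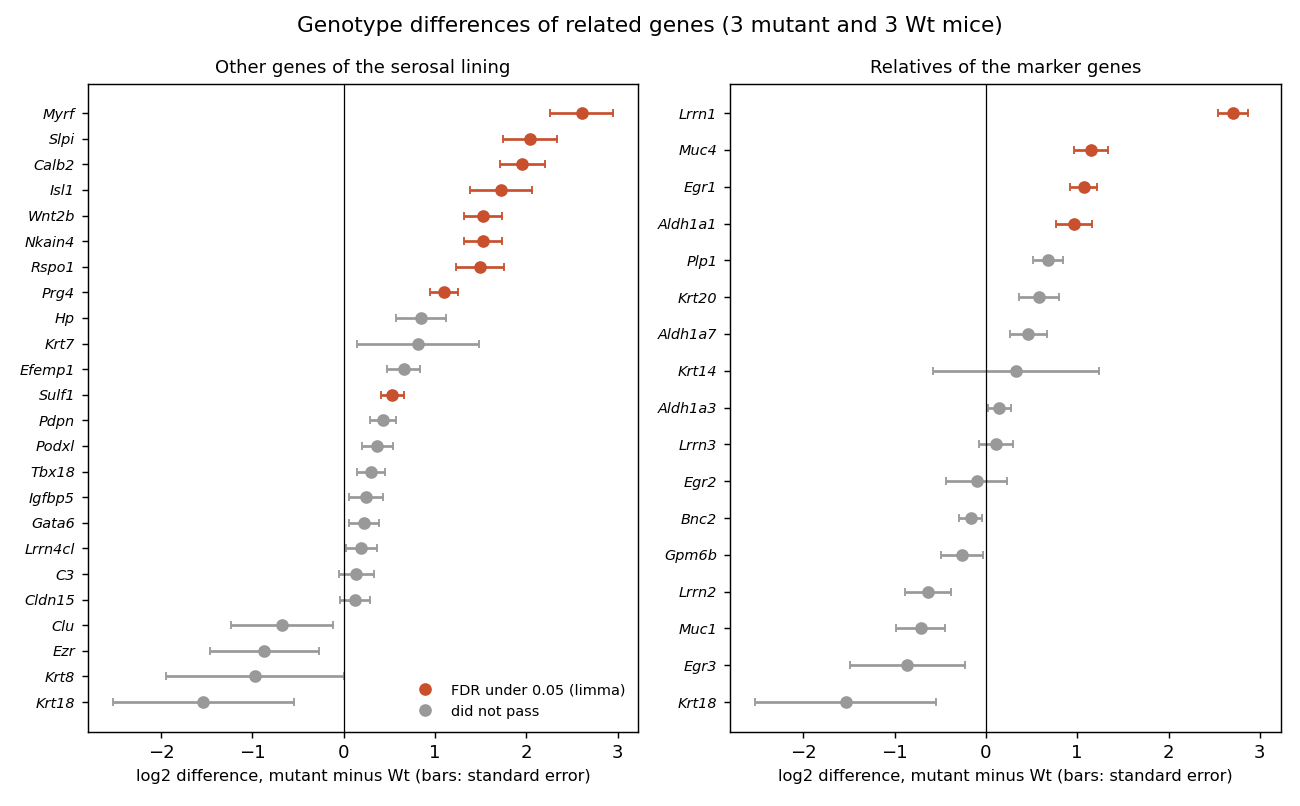
log2 difference, mutant minus Wt, of the tested genes of the serosal list (left, 24 genes) and of relatives of the marker genes (right, 17 genes), with standard errors. Red points passed an FDR of 0.05 (limma), 9 on the left and 4 on the right, all on the side of the mutant mice. Of all genes tested, 5.5% were called higher in mutant mice.

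Around *Aldh1a2*, genes of retinoid uptake, synthesis, binding, breakdown and signaling were listed. Of 21 genes, 17 were tested and 4 passed, *Aldh1a1* as higher and 3 as lower in mutant mice, where 2.61% of all genes tested were called lower (440 genes, and 61 without Wt mouse 2 or without Wt mouse 3). *Cyp26b1*, an enzyme that breaks down retinoic acid, fell from 19.1 ± 2.51 (SD, n = 3) to 9.47 ± 2.72 (SD, n = 3), a log2 difference of -1.01 (standard error 0.23, adjusted p = 0.0496, limma). The receptor genes *Rarg* and *Rxrb* had differences of -0.39 and -0.50 (adjusted p = 0.0483 and 0.0432, limma). These 3 calls lay close to the threshold, and edgeR's quasi-likelihood test and TMM scaling kept *Aldh1a1* alone. With any single mouse left out, limma called at most 2 retinoid genes, and it called 0 without Wt mouse 2, Wt mouse 3 or mutant mouse 2, where 5, 6 and 5 genes had an unadjusted p under 0.05. Retinol dehydrogenase *Rdh10* had a difference of -0.07 (standard error 0.10, adjusted p = 0.698, limma) and *Aldh1a3* one of 0.15 (standard error 0.13, adjusted p = 0.501, limma).

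Markers of other tissues were read beside the mesothelial genes. Epididymal genes were at or near 0, with at most 1 read in any mouse for *Crisp1*, *Lcn5*, *Lcn8*, *Gpx5*, *Adam7* and *Cst8* and at most 14 for *Rnase10*. The intra-abdominal position genes other than *Wt1* (*Tcf21*, *Nr2f1*, *Thbd*, *Hoxa5* and *Hoxa4*) summed to 159 to 218 in Wt mice and 215 to 296 in mutant mice. The 4 of these 5 genes that were tested gave 0 calls by limma, edgeR and DESeq2, with 1 gene at an unadjusted p under 0.05. The subcutaneous position genes *Tbx15*, *Shox2*, *En1*, *Sfrp2*, *Hoxc9* and *Hoxc10* summed to 152 to 192 in Wt and 180 to 235 in mutant mice, with 0 of 6 called by limma, edgeR or DESeq2 and 0 at an unadjusted p under 0.05. In all, 65 genes of the epithelial, epididymal, position and further lists (adipocyte, fibroblast and progenitor, endothelium, smooth muscle, skeletal muscle, Schwann cell, macrophage, lymphocyte, urothelium) held 50 tested genes. Only *Myh1*, a fast myosin of skeletal muscle, was called, at 31.1 to 279 in Wt and 1986 to 2405 in mutant mice (log2 difference 4.31, adjusted p = 0.0208, limma). Without Wt mouse 3, mutant mouse 2 or mutant mouse 3, limma called 0 of these 50, with 9, 8 and 14 at an unadjusted p under 0.05, and DESeq2 called 10 with all mice. *Myh2* and *Myh7*, other skeletal muscle myosins, did not pass (log2 differences 2.58 and 3.93, adjusted p = 0.075 and 0.13, limma), and their mutant levels lay above all Wt levels. The rest of the muscle list, *Myh4*, *Acta1* and *Ckm*, overlapped between the genotypes (log2 differences -0.12, 0.72 and 0.18). *Myh4*, the most abundant, had means of 8708 in Wt and 7800 in mutant mice. The muscle list summed to 8858 to 19012 in Wt and 13846 to 21668 in mutant mice. In the fibroblast and progenitor list, 4 of 5 genes lay above Wt with no overlap, an ordering found for 14.9% of all genes tested. Of these 5 genes, 0 were called by limma or edgeR and 2 by DESeq2, and 3 had an unadjusted p under 0.05. Macrophage genes (*Adgre1*, *Csf1r* and *Cd68*) summed to 328 to 387 in Wt and 270 to 321 in mutant mice, with 0 of 3 called by limma or edgeR and 1 by DESeq2. Smooth muscle genes (*Myh11*, *Acta2* and *Tagln*) summed to 173 to 278 in Wt and 279 to 380 in mutant mice. The highest Wt sum (277.8) and the lowest mutant sum (278.9) were nearly equal. Of these 3 genes, 0 were called by limma or edgeR and 1 by DESeq2. Only *Acta2* lay above Wt with no overlap, an ordering found for 14.9% of all genes tested. The part of these tissues in the mesothelial levels was not tested.

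**Figure D5:**
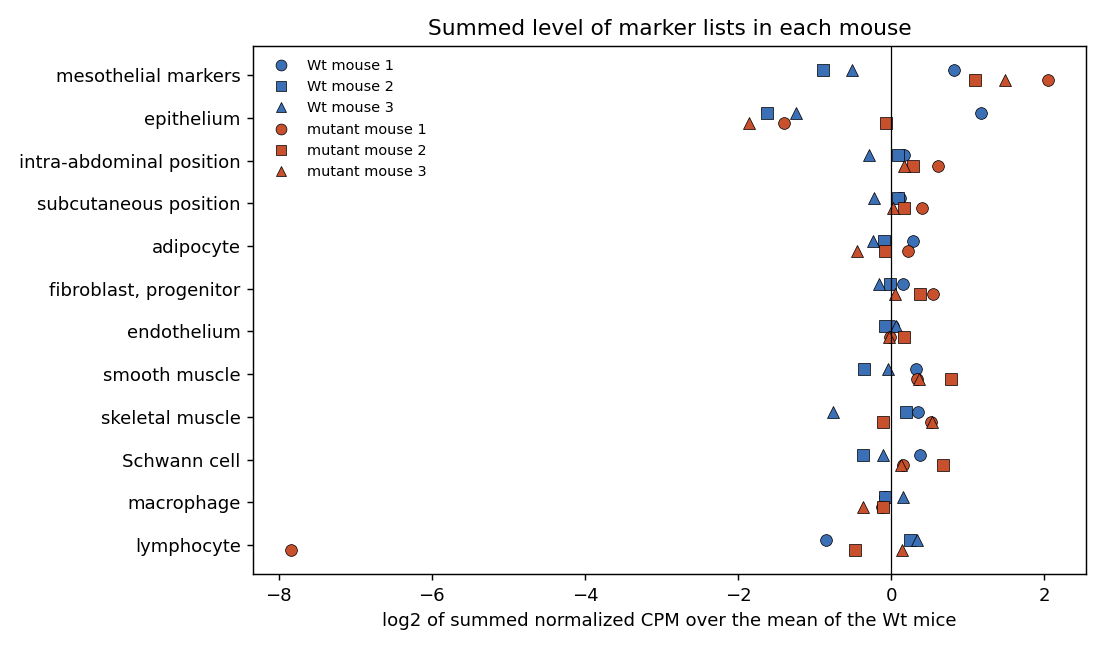
Summed level of 12 marker lists in each mouse, the intra-abdominal one with *Wt1*, as log2 of the ratio to the mean of the 3 Wt mice. The mutant mice lie above the Wt mice for the mesothelial genes and, narrowly, for the smooth muscle genes, and below them for the macrophage genes. The lymphocyte genes of mutant mouse 1 lie far below those of the other mice.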

How the data were processed

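The authors deposited 1 normalized signal value for each gene in each library, made by scaling reads to CPM with a further factor for each mouse. The submitters' processing notes name Bowtie2 2.1.0, RSEM 1.2.15, edgeR and build mm10, and the strand setting is not given in the sources used here. Whole reads were recovered from 100% of the nonzero values of every library, with a tolerance of 0.02 read, and edgeR's quasi-likelihood test on them called 1168 genes. Genotypes and mouse numbers were taken from the labels. Genes were tested with limma 3.58.1 (R 4.3.3, mean-variance trend) on log2(value + 0.5) after filterByExpr of edgeR 4.0.16, at an FDR of 0.05. The design assumed counts or normalized values, and the test for normalized values applied. The marker genes and the lists were chosen with earlier results of these data known. From each list, called genes were named, the 8 with the largest differences where there were more, and further genes by value, some chosen after their values were seen. Coordinates and exon lengths are those of GENCODE M21 (GRCm38), which held 55480 of the 55573 genes. Alternatives were other scalings, tests (edgeR, DESeq2 1.42.0, limma-voom), filters, pseudocounts, each mouse left out in turn, and the mouse number as a block. 1 gene of a marker list is not reported here and entered no list value. The tests were checked on simulated counts. Python 3.11.15, SciPy 1.17.1 and Matplotlib 3.10.9 were used otherwise.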

Additional observations from a re-analysis of the deposited data

How the results depend on the processing

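The 8 genes without overlap stayed higher in mutant mice under each scaling. Another pseudocount or a left-out mouse cannot undo such an ordering, so these settings are no check of it. The count without overlap was 8 to 10 and the median log2 difference of the 10 genes 1.86 to 2.32 with 1 mouse left out, and 3.22 with a pseudocount of 0.1. *Krt19* changed sign to 0.87 without Wt mouse 1 and to 0.05 without mutant mouse 2, and was at -0.72 without Wt mouse 2. Mouse numbers were also used as a replicate block, although the deviations of same-numbered mice correlated at 0.69, 0.06 and 0.56 and the labels name no pairing. With the block, calls numbered 4063 over all genes (1368 without), 14 in the serosal list, 7 among relatives, 7 in the retinoid list and 9 in the other lists. The block also turned the split of all calls to 1733 higher and 2330 lower, from 928 and 440. The split was 1019 and 265 with library size only, 877 and 291 with edgeR, 493 and 61 without Wt mouse 2, 520 and 61 without Wt mouse 3, and 524 and 63 without mutant mouse 2. With 1 mouse left out, calls in these groups numbered 554 to 1005, 5 to 8, 2 to 5, 0 to 2 and 0 to 3. Without mutant mouse 1 they were 1005, 8, 3, 1 and 1. With at least 10 reads required in every mouse, there were 598 calls over all genes, 4 serosal and 1 retinoid, and fewer genes were tested (14638). DESeq2's Wald test called 2118 genes, 10 of them in the other lists. The retinoid count was 1 with edgeR's quasi-likelihood test, limma-voom, TMM factors or no filter, and 2 with library size only, DESeq2 size factors or a pseudocount of 0.1. The count in the other lists was 0 with limma-voom and 2 with library size only or DESeq2 size factors. The causes were not tested. Depth limits the Wt values of *Upk3b*, *Upk1b*, *Wt1*, *Msln*, *Muc16* and *Bnc1*, where some mice had 3 reads or fewer.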

Other observations

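The genes whose pattern over the 6 libraries was most like the marker genes were mostly transcripts with a more abundant antisense partner. Among 191 other genes with a log2 difference of at least 2, the 10 with the highest Pearson r to the mean log2 level of the marker genes had r between 0.985 and 0.995 (6 libraries, which share the genotype split, so the values are a description). Of these 10, 8 share exonic bases with an antisense partner whose level is at least 10-fold higher, as do 132 of the 191. The closest was A330041J22Rik, opposite *Me1* (a malic enzyme), whose mean level was 205 times its own. The exceptions were *Slpi* (r = 0.991) and *Myh8*, a myosin of developing muscle (r = 0.989), at 1.51, 1.02 and 1.64 in Wt mice and 11.9, 8.80 and 10.7 in mutant mice. Among the marker genes themselves, the r of a gene with the mean of the other 9 was 0.993 for *Lrrn4*, 0.983 for *Bnc1* and 0.981 for *Upk1b*, and fell to 0.653 for *Aldh1a2* and 0.00613 for *Krt19*.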
